A study of Homo sapiens with 6 samples.

Results

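Wnt ligands, receptors, secreted antagonists and the feedback gene AXIN2 were examined in U87 cells, an established human glioblastoma line. The 10 listed genes were WNT5A, WNT5B, DKK1, DKK3, SFRP1, FZD7, FZD8, LRP6, ROR2 and AXIN2. For each, the array row annotated with that single symbol was taken, and the row with the highest mean would have been used had there been several. This gave 1 row for each of 9 genes, among 22411 named genes tested. The row that carries FZD8, a Frizzled receptor, is annotated with a second gene as well, so FZD8 is not reported. The treated group held 3 arrays of U87 cells kept for 48 h in medium with 1 mM of a carborane-bearing amino acid. The control group held 3 arrays of U87 cells, also labelled 48 h, without that compound. Groups were taken from the sample titles and treatment labels, because the protocol text is the same for both. A carborane is a cage of boron, carbon and hydrogen atoms. All cells had first grown for 48 h in medium with serum and pyruvate. The labels name no vehicle and no number of separate cultures, so the spread behind each p-value is that of the arrays at hand and may be technical. The question was which transcripts differ after exposure to the compound.

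Wnt proteins are secreted, lipid-modified ligands that bind Frizzled receptors at the cell surface. With the co-receptors LRP5 or LRP6 they spare beta-catenin from destruction, and beta-catenin with TCF/LEF factors then switches on targets such as AXIN2, whose protein limits the same pathway. WNT5A is best known for a branch without beta-catenin that uses ROR receptors and planar polarity proteins, and it has been studied in glioblastoma for its link to cell invasion. The antagonists act outside the cell, either by blocking LRP5 and LRP6, as DKK1 does, or by binding Wnt ligands, as SFRP1 does.

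Values are log2 signals of the deposited table, and a change is treated minus control on that scale. The test was limma fitted over all genes, and a call means a p under 0.05 after Benjamini-Hochberg adjustment. Of the 9 measured genes, 3 were lower after treatment (DKK1, DKK3 and LRP6), 1 was higher (WNT5A) and 5 were not called. Among all genes tested, 45.6% were called, 24.0% higher and 21.6% lower, so a call on 4 of 9 genes was near the background. The median change was -0.06 over the 9 genes and 0.01 over all genes. For 5 of the 9 genes the treated and control values did not overlap, against 53.5% of all genes. One call, that of DKK1, came with a change of at least 1 in size, which 9.90% of all genes reached.

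**Figure D1:**
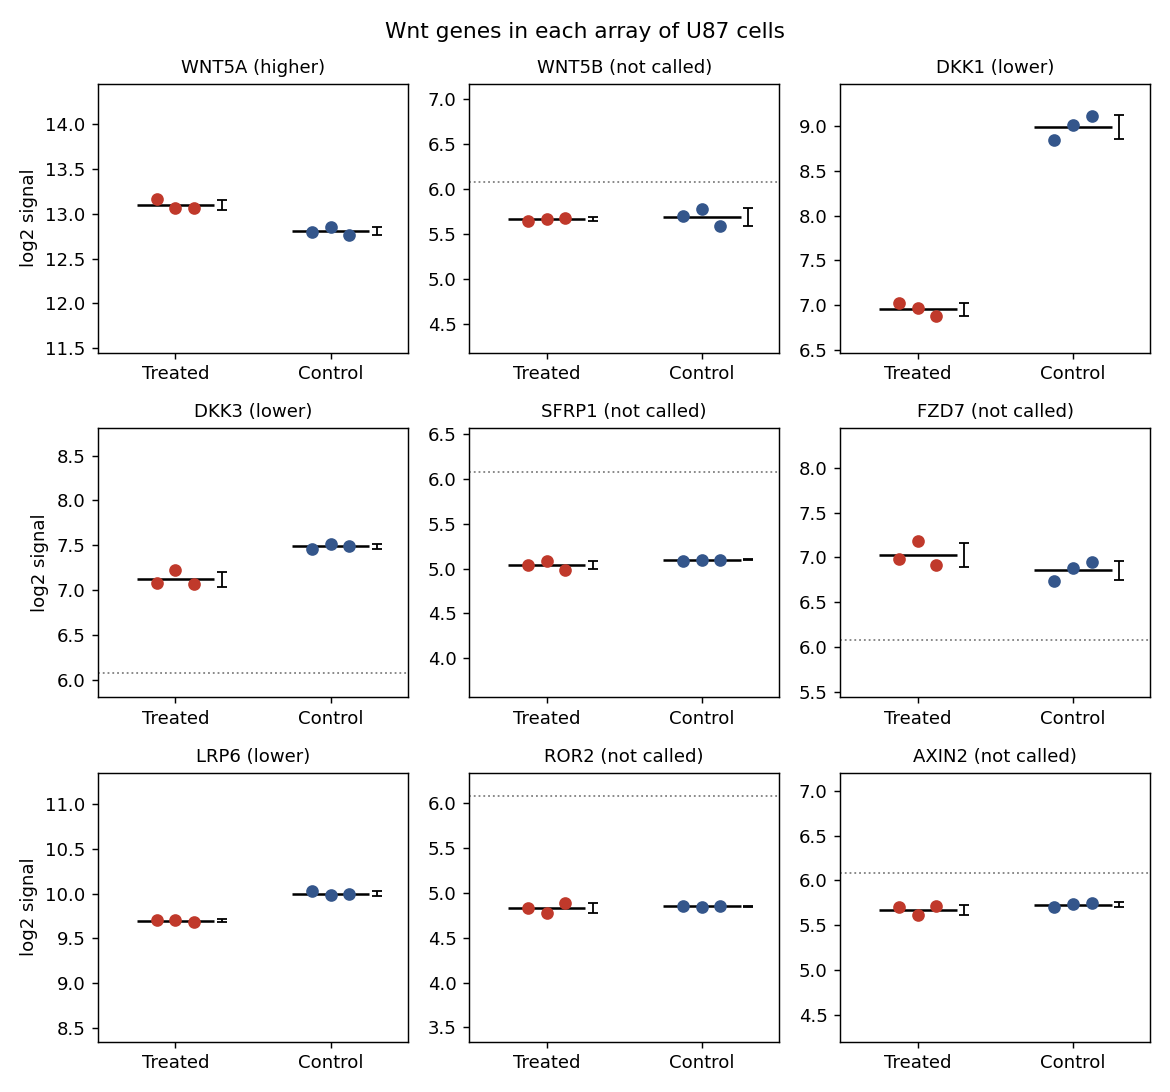
Log2 signal (vertical axis) of each of the 9 measured Wnt genes in the 3 treated (red) and 3 control (blue) arrays; every panel spans the same range of log2 signal, the horizontal line is the group mean, the bar beside it is ± 1 SD, and the dotted line is the midpoint of the array medians where it falls in the panel. The groups of DKK1 lie at 6.88 to 7.02 and 8.84 to 9.11, while those of WNT5B, FZD7, AXIN2 and ROR2 overlap.

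All 6 arrays were of similar range, with medians over the genes tested of 6.06 to 6.10. Signals correlated at 0.998 between arrays of a group and at 0.959 to 0.963 between groups (Pearson, across genes, which are not independent replicates). A mean below the array medians is called near background here, because the table used has no detection p-values. Of 10 glioma and astrocyte markers, GFAP, S100B, AQP4 and ALDH1L1 were near background in both groups, and the list averaged 8.35 to 8.38 in treated and 9.01 to 9.06 in control arrays. NES, SOX9, GJA1, SLC1A3 and VIM fell, with log2 changes of -1.89, -1.86, -1.20, -0.97 and -0.70, and CD44 rose by 0.44. The treated mean of NES, 5.78, was near background, so the size of its fall is uncertain. Of 15 markers of other cell types, 12 were near background in both groups, the exceptions being COL1A1, PDGFRB and CD68, and this list averaged 5.80 to 5.86 in treated and 5.99 to 6.01 in control arrays. COL1A1, PDGFRB and EPCAM, the last near background, fell, with log2 changes of -1.75, -0.66 and -0.20. CD68, listed as an immune marker, was among the brightest genes (percentile 99.8 by mean signal). It averaged 16.11 in treated and 16.10 in control arrays and was not called. All 8 proliferation markers fell, at a list mean of 6.90 to 6.95 in treated and 13.09 to 13.26 in control arrays. Among them were TOP2A at 6.52 ± 0.15 in treated and 14.16 ± 0.11 in control cells and MKI67 at 7.43 ± 0.11 in treated and 14.69 ± 0.10 in control cells (SD, n = 3 each). The part of these markers in the Wnt results was not tested. In such bulk RNA, fewer cells of a type and less RNA per cell cannot be told apart. The reference genes ACTB and GAPDH fell too, with log2 changes of -1.46 and -0.51, and both stayed lower under all 15 other fits.

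WNT5A, the ligand of the branch without beta-catenin, rose slightly. Its log2 signal was 13.16, 13.07 and 13.07 in treated arrays 1 to 3, against 12.80, 12.85 and 12.76 in control arrays 1 to 3. Each treated value was above each control value. The log2 change was 0.30 (SE 0.05, 95% interval 0.18 to 0.41, limma adjusted p = 0.0016). With quantile normalization repeated, the log2 change was 0.20 (adjusted p = 0.0119). The deposited values give 1.23 times the control signal, and 64.1% of all genes changed by less in either direction.

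WNT5B, its closest paralog, had signals of 5.64, 5.67 and 5.68 in treated arrays and of 5.70, 5.78 and 5.59 in control arrays. The groups overlapped, and both lay near background. With a log2 change of -0.03 (95% interval -0.16 to 0.11, limma adjusted p = 0.746), a rise of WNT5B as large as the estimate for WNT5A lay outside this interval on the measured scale. The interval does not bound the change of the transcript itself, since a change this close to background may not be seen by the array.

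Of the 17 other Wnt ligands, 1 rose, 2 fell and 14 were not called. The 17.6% called stands against 45.6% of all genes and 16.3% of those below the median signal. The median log2 change of these ligands was 0.01, and 13 of the 17 were near background in both groups. WNT7B, a ligand of the beta-catenin branch in brain vessels, fell by 1.28 on the log2 scale (limma adjusted p = 3.05e-05), at 5.63 ± 0.07 in treated and 6.91 ± 0.19 in control cells (SD, n = 3 each). The treated mean was near background, so the size of that fall is uncertain. WNT3 had a log2 change of 0.19 (limma adjusted p = 0.0215). This call was lost without treated replicate 1 (adjusted p = 0.0625), treated replicate 2 (0.0675), control replicate 1 (0.0539) or control replicate 3 (0.0712). WNT9A had a log2 change of -0.15 (limma adjusted p = 0.0457), and its call was lost without treated replicate 1 or 3 (adjusted p = 0.123 each) or without control replicate 1 (0.120), 2 (0.0932) or 3 (0.103). It was also lost with the replicate block (0.0920), median centring (0.0829), repeated quantile normalization (0.101), eBayes with trend (0.0541) and array weights (0.0618).

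All 3 measured genes that move Wnt proteins through the secretory pathway were called. None of the 3 was near background in both groups. Of all genes 45.6% were called, and 74.8% of those at or above the median signal. WLS, the carrier that takes lipid-modified Wnt proteins to the cell surface, fell by 3.28 on the log2 scale (SE 0.04, limma adjusted p = 1.53e-08). Its signal was 9.78, 9.75 and 9.71 in treated arrays, against 13.01, 12.99 and 13.07 in control arrays. On the log2 scale 99.2% of all genes changed by less. TMED5 and TMED2, p24-family transport proteins of the early secretory pathway, rose by 0.95 and 0.48 on the log2 scale (limma adjusted p = 9.64e-06 and 1.74e-04). The acyltransferase gene PORCN, the remaining gene of this list, had no row with that single symbol.

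Among the secreted antagonists, DKK1 had the largest change of the 9 genes. DKK1 binds LRP5 and LRP6 and, with the Kremen receptors, takes them out of Wnt signalling. It is itself a known target of beta-catenin. Signals were 7.02, 6.97 and 6.88 in treated arrays 1 to 3, against 8.84, 9.01 and 9.11 in control arrays 1 to 3. The groups were far apart relative to their spread, at 6.96 ± 0.07 in treated and 8.99 ± 0.14 in control cells (SD, n = 3 each). The log2 change was -2.03 (SE 0.08, 95% interval -2.21 to -1.85, limma adjusted p = 1.1e-06), and 97.4% of all genes changed by less. On the deposited scale the signal was 4.08-fold lower in treated cells (95% interval 3.60 to 4.64). That scale may be stretched, since values above 16 occur on every array. With the scale compressed so that 16 is the highest value, the log2 change was -1.73.

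RefSeq promoter windows (GRCh38.p14) were at hand for 5 of the 10 listed genes. The 250 bases before the start are shown for DKK1 and for both annotated starts of WNT5A, the only called listed genes with a window. Each window was searched on both strands for CTTTGA, the core of TCF/LEF sites, TGANTCA, the AP-1 motif, and TATAAA, the TATA box, and matches are in capitals.
DKK1, chr10:52314031-52314280, plus strand: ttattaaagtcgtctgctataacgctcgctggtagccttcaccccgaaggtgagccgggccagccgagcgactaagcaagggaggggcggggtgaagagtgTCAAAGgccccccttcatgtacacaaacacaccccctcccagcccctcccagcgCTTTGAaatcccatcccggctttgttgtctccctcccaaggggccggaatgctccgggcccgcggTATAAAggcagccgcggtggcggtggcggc
WNT5A, upstream start, chr3:55487307-55487556, minus strand: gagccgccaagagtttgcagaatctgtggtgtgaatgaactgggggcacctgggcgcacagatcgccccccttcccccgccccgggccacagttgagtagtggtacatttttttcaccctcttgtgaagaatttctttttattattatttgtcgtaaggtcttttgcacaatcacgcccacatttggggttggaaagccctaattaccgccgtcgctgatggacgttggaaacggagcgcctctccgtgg
WNT5A, downstream start, chr3:55481399-55481648, minus strand: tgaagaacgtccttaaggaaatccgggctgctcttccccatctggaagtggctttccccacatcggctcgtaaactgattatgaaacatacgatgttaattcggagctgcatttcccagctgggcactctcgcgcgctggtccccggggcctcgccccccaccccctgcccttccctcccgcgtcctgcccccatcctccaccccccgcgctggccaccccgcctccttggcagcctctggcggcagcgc

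The DKK1 window held CTTTGA at -95 and its reverse complement TCAAAG at -149, counted to the first base from the start of the gene, and TATAAA at -30. No 2 of these matches overlapped. Among 35116 promoters in the table, 11.2% held the TCF/LEF core at least once, 10.7% the TATA box and 6.57% the AP-1 motif. These windows were of the same length. Neither WNT5A window held any of these motifs. Of the other windows, 1 of WNT5B held the TATA box letters at -78 on the opposite strand and that of FZD8 at -29, and that of ROR2 and the other one of WNT5B held no match. The matches describe the letters only, and their part in any change was not tested.

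DKK3, a divergent member of the same family that does not block LRP6 in the way DKK1 does, also fell. Its signals were 7.08, 7.22 and 7.07 in treated arrays, against 7.46, 7.52 and 7.49 in control arrays. The treated values all lay below the control values. This gave a log2 change of -0.37 (SE 0.05, 95% interval -0.49 to -0.24, limma adjusted p = 0.00101).

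SFRP1, a decoy that shares the Wnt-binding domain of Frizzled receptors, was near background in both groups. It read 5.04, 5.08 and 4.99 in treated arrays and 5.09, 5.10 and 5.10 in control arrays. Treated values were all below control values, but by a margin too small for a call, with a log2 change of -0.06 (95% interval -0.16 to 0.04, limma adjusted p = 0.296).

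**Figure D2:**
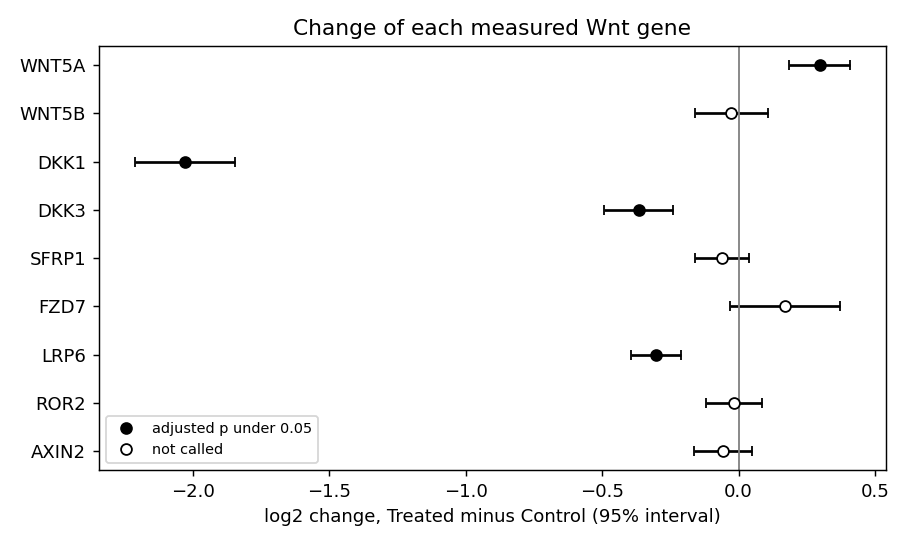
Log2 change, treated minus control (horizontal axis), of each measured Wnt gene, ordered by role from ligands at the top to the feedback gene at the bottom; points are limma estimates from 3 treated and 3 control arrays, bars are 95% intervals, and filled points have an adjusted p under 0.05. DKK1 stands at -2.03, the other called genes lie between -0.37 and 0.30, and the intervals of the 5 open points include 0.

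Other secreted antagonists changed in both directions, with 3 higher, 1 lower and 7 not called of 11, at a median log2 change of -0.02. Called were 36.4%, against 45.6% of all genes, and 9 of the 11 were near background in both groups. SFRP2, a relative of SFRP1, rose by 4.08 on the log2 scale (SE 0.09, limma adjusted p = 9.17e-08). Its signals were 10.51, 10.56 and 10.32 in treated arrays, against 6.25, 6.47 and 6.44 in control arrays. The control mean of SFRP2, 6.39, lay not far above the array medians of 6.06 to 6.10, so the size of its rise is uncertain. On the compressed scale its log2 change was 3.47. FRZB, another Frizzled-related decoy, rose by 1.37 (limma adjusted p = 5.61e-05), at 6.81 ± 0.15 in treated and 5.44 ± 0.20 in control cells (SD, n = 3 each). The control mean of FRZB was near background, so its size is uncertain. SFRP4 fell by 0.40 and SOSTDC1, a BMP and Wnt antagonist, rose by 0.27 on the log2 scale, both near background in each group. The antagonists did not move as one group: DKK1 was lower, while SFRP2 and FRZB were higher.

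Among the receptors, LRP6, the co-receptor that DKK1 binds, fell by a small amount. Its signals were 9.71, 9.70 and 9.68 in treated arrays, against 10.03, 9.98 and 9.99 in control arrays. All treated arrays lay below all control arrays, and the values within each group were close together. The log2 change was -0.30 (SE 0.04, 95% interval -0.40 to -0.21, limma adjusted p = 4.84e-04). Its partner LRP5 was near background in both groups, and its log2 change of -0.10 did not pass (limma adjusted p = 0.110).

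FZD7, a Frizzled receptor of the beta-catenin branch, had the widest interval of the 9 genes. It read 6.98, 7.18 and 6.92 in treated arrays and 6.74, 6.88 and 6.95 in control arrays, and the groups overlapped. Its log2 change of 0.17 was not called (95% interval -0.03 to 0.37, limma adjusted p = 0.157).

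ROR2, the receptor tyrosine kinase through which WNT5A signals without beta-catenin, was near background in every array. It read 4.83, 4.78 and 4.89 in treated arrays and 4.86, 4.84 and 4.85 in control arrays. The control range lay within the treated range. ROR2 was not called, at a log2 change of -0.02 (95% interval -0.12 to 0.09, limma adjusted p = 0.798).

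Of 17 other receptors and co-receptors, 3 rose, 6 fell and 8 were not called (52.9% called), with a median log2 change of -0.11. No gene of this list changed by 1 or more. KREMEN1, the DKK1 partner that takes LRP6 from the surface, fell by 0.57 on the log2 scale (limma adjusted p = 1.93e-04), at 7.60 ± 0.07 in treated and 8.17 ± 0.09 in control cells (SD, n = 3 each). FZD2, a Frizzled receptor, fell by 0.42 and PTK7, a pseudokinase of planar polarity, by 0.35, while LRP4, a relative of LRP6, rose by 0.30. Among other receptors used by WNT5A, RYK fell by 0.18 (limma adjusted p = 0.0066), and ROR1, near background in both groups, rose by 0.27 (limma adjusted p = 0.016). The ROR1 call was lost without control replicate 1 (adjusted p = 0.0516) or control replicate 2 (0.0570). FZD5 rose by 0.18 (limma adjusted p = 0.0404), a call lost without treated replicate 1 (0.111) or 2 (0.105) or control replicate 1 (0.111) or 3 (0.0862). It was also lost with the replicate block (0.0744). FZD4, near background, fell by 0.32 (limma adjusted p = 0.0237), a call lost without control replicate 1 (0.0778) or 3 (0.0729). Without control replicate 1, 1 receptor of this list was higher instead of 3.

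R-spondins and their LGR receptors keep Frizzled and LRP6 at the surface by removing the ligases RNF43 and ZNRF3. RSPO3, an R-spondin, rose by 2.07 on the log2 scale (SE 0.07, limma adjusted p = 8.3e-07), at 8.69, 8.45 and 8.52 in treated arrays, against 6.54, 6.52 and 6.40 in control arrays. Its control mean, 6.49, lay not far above the array medians of 6.06 to 6.10, so the size is uncertain. With the compressed scale the log2 change of RSPO3 was 1.76. LGR4, the receptor of RSPO3, fell by 0.77 (limma adjusted p = 1.17e-05), with 8.86 ± 0.07 in treated and 9.63 ± 0.03 in control cells (SD, n = 3 each). RNF43 fell by 0.27 near background, and ZNRF3 had a log2 change of -0.14 (limma adjusted p = 0.0338). In all, 1 of the 9 genes of this axis rose, 4 fell and 4 were not called. That is 55.6% called, against 45.6% of all genes, and 6 of the 9 were near background in both groups. The count of lower genes was 2 instead of 4 in every fit that left out 1 array apart from treated replicate 3. The calls lost there were those of ZNRF3 (adjusted p = 0.0586 to 0.102) and RSPO1 (adjusted p = 0.0505 to 0.112). Without treated replicate 3 the RSPO1 call was lost as well (adjusted p = 0.0673), while that of ZNRF3 held (0.0270). ZNRF3 was also lost with the replicate block (0.0630), median centring (0.0730) and repeated quantile normalization (0.0725), and RSPO1 with the replicate block (0.0938) and median centring (0.0779).

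**Figure D3:**
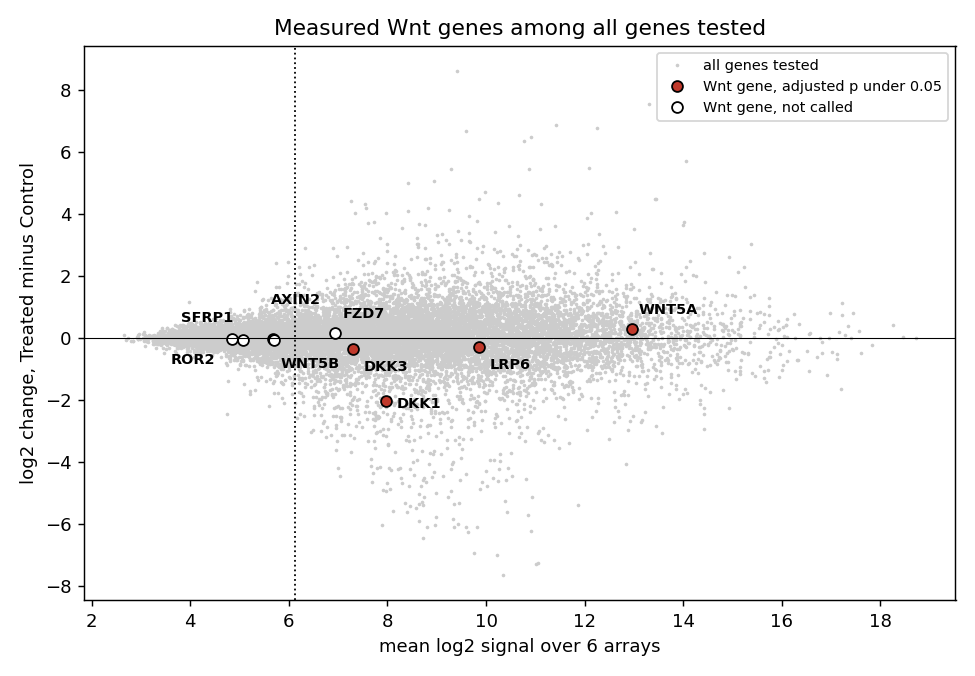
Log2 change, treated minus control (vertical axis), against the mean log2 signal over 6 arrays (horizontal axis) for all 22411 genes tested (grey) and the 9 measured Wnt genes (circles, filled where called); the dotted line marks the median of the gene means, 6.12. WNT5B, SFRP1, AXIN2 and ROR2 lie left of it, and the called DKK1, DKK3, LRP6 and WNT5A lie right of it.

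AXIN2, the feedback gene most often read as a sign of beta-catenin activity, was near background in both groups. Its signals were 5.70, 5.61 and 5.71 in treated arrays and 5.70, 5.74 and 5.75 in control arrays, so the groups overlapped. The log2 change was -0.06 (95% interval -0.16 to 0.05, limma adjusted p = 0.367). A change in a transcript this close to background may not be seen by the array.

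The 4 uncalled genes WNT5B, SFRP1, ROR2 and AXIN2 were also the 4 near background in both groups. Across all genes, 16.3% were called where the mean signal lay below the median, and 74.8% at or above it. All 4 called Wnt genes, and FZD7, belonged to the brighter set.

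Feedback genes and common targets of beta-catenin did not share a direction. Of 14 measured, 2 were higher, 6 lower and 6 not called (57.1% called), at a median log2 change of -0.11. DACT1, a Dishevelled-binding regulator, rose by 1.19 on the log2 scale, at 7.28 ± 0.11 in treated and 6.09 ± 0.12 in control cells (SD, n = 3 each). That control mean was near background, so the size is uncertain. The proto-oncogene MYC rose by 0.80 (limma adjusted p = 9.48e-05), whereas CCND1, the gene of cyclin D1, fell by 0.71 (limma adjusted p = 5.8e-05). TNFRSF19, a receptor of the TNF family, fell by 0.54, a size that is uncertain because its treated mean of 5.91 was near background. The other lower genes were RNF43 at -0.27, near background in both groups, DACT3 at -0.26, LEF1 at -0.19 and ZNRF3 at -0.14. The ZNRF3 call was lost in 5 of the 6 fits that left out 1 array. Of the targets counted with the listed genes, DKK1 had a log2 change of -2.03 and AXIN2 was not called. LGR5, NOTUM, NKD1, NKD2, SP5 and APCDD1, which are commonly read as targets, were not called, and all 6 were near background in both groups, so a change may not be seen by the array. MYC and CCND1 answer to many other signals as well.

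**Figure D4:**
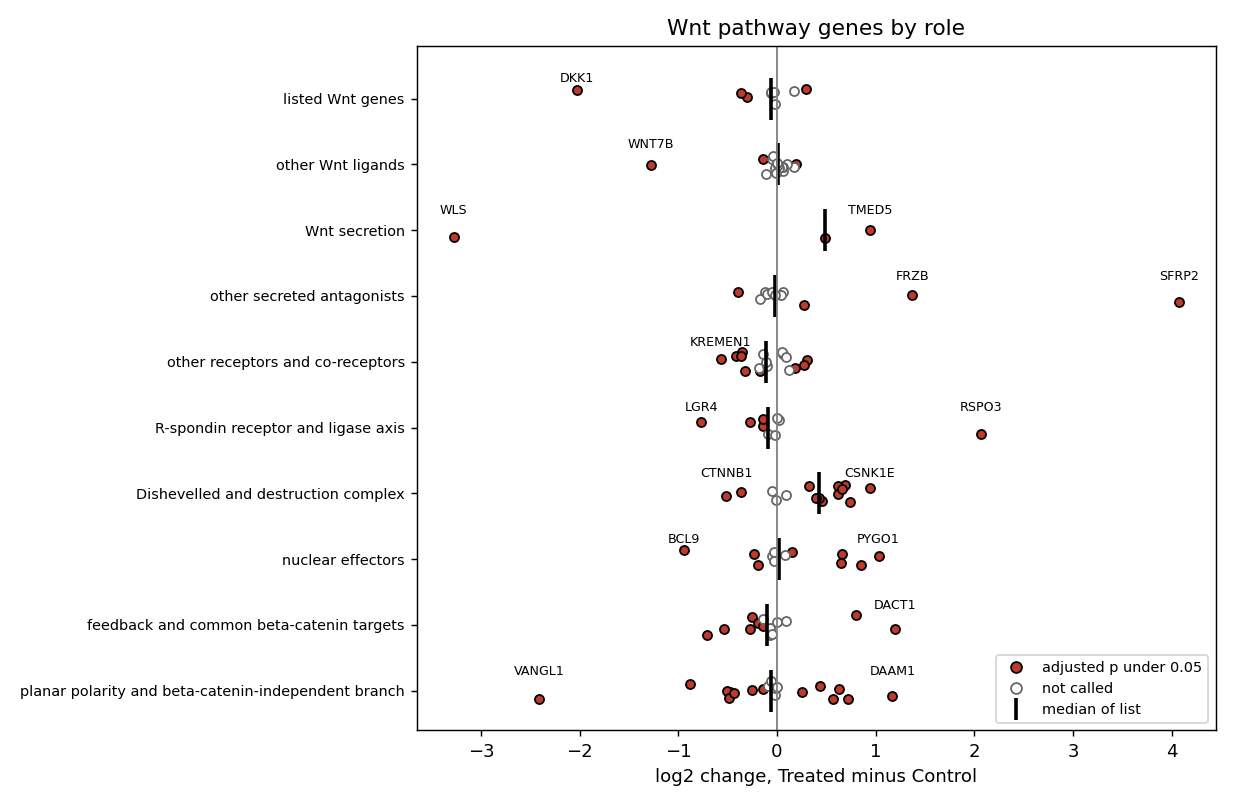
Log2 change, treated minus control (horizontal axis), of the measured genes of each Wnt pathway group (rows); filled points have an adjusted p under 0.05 in limma, open points were not called, vertical bars are group medians, and vertical scatter within a row has no meaning. WLS at -3.28, VANGL1 at -2.41, DKK1 at -2.03, RSPO3 at 2.07 and SFRP2 at 4.08 lie farthest from 0.

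Inside the cell, Dishevelled and destruction-complex genes had 10 higher, 2 lower and 3 not called of 15 measured (median log2 change 0.43). None of the 15 was near background in both groups, and the 80% called was near the 74.8% of all genes at or above the median signal. These rises included the casein kinase genes CSNK1E at 0.94 and CSNK1A1 at 0.69, the Dishevelled gene DVL3 at 0.74 and TNKS, which encodes the AXIN-degrading tankyrase, at 0.62. The genes that fell were CTNNB1, the beta-catenin gene, at -0.52 (limma adjusted p = 2.94e-05) and the scaffold gene APC at -0.36 (limma adjusted p = 0.00637). CTNNB1 read 9.37, 9.35 and 9.39 in treated arrays, against 9.89, 9.91 and 9.86 in control arrays. Nuclear partners split, with 5 higher, 3 lower and 4 not called of 12. The 66.7% called stands against 45.6% of all genes and 74.8% of those at or above the median signal. CTNNBIP1, near background, was among the higher genes (log2 change 0.15, limma adjusted p = 0.0334). Its call was lost in 5 of the 6 fits that left out 1 array (adjusted p = 0.0546 to 0.104) and with the replicate block (0.0821). BCL9, a coactivator of beta-catenin, fell by 0.94, while its partner PYGO1 rose by 1.03, the corepressor gene TLE3 by 0.85 and TCF7L2, a DNA-binding partner, by 0.65.

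Genes of planar polarity and the branch without beta-catenin, in which WNT5A acts, had 6 higher, 8 lower and 5 not called of 19 measured (median log2 change -0.06). The 73.7% called stands against 45.6% of all genes and 74.8% of those at or above the median signal, and 6 of the 19 were near background in both groups. VANGL1, a core planar polarity protein, fell by 2.41 on the log2 scale (SE 0.07, limma adjusted p = 4.58e-07). It read 7.98, 7.82 and 7.70 in treated arrays, against 10.29, 10.20 and 10.25 in control arrays. The kinase gene PRKCA fell by 0.88. DAAM1, a formin that links Dishevelled to actin, rose by 1.17, and PRICKLE2, another polarity gene, by 0.63. VANGL2 and PRICKLE1, paralogs of VANGL1 and PRICKLE2, were not called and lay near background. DAAM2, near background, was among the lower genes (log2 change -0.15, limma adjusted p = 0.0317). Its call was lost in 5 of the 6 fits that left out 1 array (adjusted p = 0.0566 to 0.104). The replicate block (0.0503) and median centring (0.0663) lost it too.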

How the data were processed

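Each deposited column holds log2 signals of 1 Affymetrix array, with a row per transcript cluster. Per the submitters' processing notes, the authors used RMA and Transcriptome Analysis Console (version 4.0.1.36). RMA includes quantile normalization, which hides any change of total RNA, although the deposited columns differ slightly in distribution (array medians 5.18 to 5.24). The array's genome build was not given in the sources. Values ran from 2.44 to 19.46, above the 16 that a 16-bit scan reaches, so a further step may have stretched the scale. Of 67528 rows, 23781 had 1 symbol in the platform annotation, updated through the GRCh38.p14 RefSeq gene table. Where a gene had several rows, the one of highest mean was used, which left 22411 genes. The 2 groups were compared in R 4.3.3 by lmFit and eBayes of limma 3.58.1 (residual degrees of freedom 4, prior 2.75). No gene was removed for a low level, and p-values were adjusted over all genes. The fit was tested on simulated data. Precision is limited by the number of arrays.

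The 10 genes, the pathway lists and the tests were chosen with earlier results of these data known. Named were all listed genes, up to 4 called genes per list by adjusted p, TOP2A, MKI67, ACTB and GAPDH. Other pathway genes, such as LRP5, RYK, ROR1, FZD4, FZD5, CTNNB1, APC, RSPO1, CTNNBIP1, DAAM2 and the uncalled targets, were named after their values were seen. So were DACT3 and LEF1. Alternatives were leaving out each array, a replicate block, removing dim genes, all rows, the mean of a gene's rows, median centring, repeated quantile normalization, a compressed scale, eBayes with trend, array weights and a minimum change. Figures were drawn with matplotlib 3.10.9.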

Additional observations from a re-analysis of the deposited data

How the results depend on the processing

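WNT5A stayed higher, and DKK1, DKK3 and LRP6 lower, in all 15 other fits, with log2 changes of 0.20 to 0.32, -2.10 to -1.73, -0.42 to -0.31 and -0.34 to -0.26. WNT5B, SFRP1, FZD7, AXIN2 and ROR2 were called in none of the fits that held them. Leaving out 1 array gave 9298 to 9725 called genes, against 10212 with all 6 (4869 to 5187 higher, 4422 to 4548 lower), and 4 called Wnt genes each time. Requiring a log2 change of at least 1 left 2219 genes, 1115 higher and 1104 lower, and 1 Wnt gene, DKK1 (0 higher, 1 lower). Deviations of same-numbered arrays from their group means correlated at -0.08 to 0.04, against -0.04 to 0.09 for arrays of other numbers in the other group. No shared effect of the number was seen, but such values cannot tell whether the arrays were paired, which the labels do not give. With the replicate block, 9577 genes were called (5086 higher, 4491 lower), the listed Wnt genes again with 1 higher and 3 lower (adjusted p = 0.00819 for WNT5A, 9.27e-05 for DKK1). Of 288 counts of pathway groups under the alternatives, 41 moved by over 1.5 times or to or from 0. The 288 include the counts under the minimum change, which can only be equal or lower. Low signals limit what can be said of genes near background, among them 4 of the listed Wnt genes and most other Wnt ligands.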
